A study of Mus musculus with 10 samples.

Results

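The 10 genes described here encode receptors with which phagocytes bind and take up modified lipoproteins, debris and dying cells: *Cd36*, *Msr1*, *Marco*, *Stab1*, *Stab2*, *Colec12*, *Lrp1*, *Scarb1*, *Mertk* and *Axl*. They were taken by symbol as a list of named receptors, with no threshold on any value, from the 55401 gene rows counted in each tumor. Each symbol has 1 row, and all 10 passed edgeR's filter on low counts. The tumors were B16F10 melanomas, a mouse line implanted under the skin of C57BL/6J mice and taken on day 15. In 5 of them the implanted cells were *Mir25* KO cells, made by CRISPR-Cas9 editing of the miR-25 stem-loop, and in 5 they were non-targeting control (NTC) cells. Every mouse of both groups had received Comb: 1000000 irradiated GM-CSF-secreting B16 cells (GVAX) in the opposite flank on days 1 and 4, followed by 3 doses of αPD-1 (10 mg/kg each, days 6, 9, 12). The host was not edited, so its leukocytes, vessels and fibroblasts kept *Mir25* in both groups. The labels give neither the sgRNA nor whether a clone was implanted, and no untreated tumors belong to the series.

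Scavenger receptors are grouped into classes by structure rather than by ancestry. MSR1, MARCO and COLEC12 belong to class A, CD36 and SCARB1 to class B, and stabilin-1 and stabilin-2 to class H. LRP1, a large lipoprotein receptor, clears many ligands and takes part in the uptake of apoptotic cells. MERTK and AXL, with TYRO3, form the TAM family of receptor tyrosine kinases, which bind phosphatidylserine on dying cells through the bridging ligands GAS6 and protein S, and efferocytosis is the name for that uptake. Tumor macrophages are known for many of these receptors, but several are also made elsewhere: stabilin-2 in sinusoidal endothelium, COLEC12 in endothelium and stroma, CD36 in adipocytes and capillaries, and AXL in fibroblasts and many tumor cells.

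One library has to be set out before the values. NTC replicate 1 had 11896643 reads on genes, against 23243707 to 28682130 in the other 9. It also had 42.95% of its counted reads outside annotated genes against 17.47% to 28.18%, and 33193 genes with a count against 22192 to 25435. A background estimated from 16208 autosomal genes with no count in the other 9 tumors would supply 36.4% of its 23 counts for *Stab2*, 3.21% of those for *Scarb1*, 2.22% of those for *Colec12* and under 1% for the other 7 receptors. Results are therefore given for all 10 tumors and for the 9 without it. The deletion could not be checked from these files, because *Mir25* had 0 counts in every tumor. Its host gene *Mcm7* did not pass the test (log2 fold change -0.14, SE 0.22, edgeR adjusted p = 0.875, over 10 tumors). Counts were used as deposited, and levels are counts per 1000000 reads (CPM) on TMM-normalized library sizes.

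The 3′ UTRs of the receptors were searched for matches to the seed of mature miR-25-3p, the RNA whose precursor was edited in the implanted cells. It is shown with its seed, bases 2 to 8, in capitals (RefSeq on GRCm38.p6, chr5:138165332-138165353, minus strand).
mmu-miR-25-3p: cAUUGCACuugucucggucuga

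A match to the whole seed reads GTGCAAT in the mRNA, and GTGCAATA with the adenine that follows it. None of the 10 receptors had either in its longest annotated 3′ UTR (GENCODE M21, GRCm38), while 6.62% of 20832 genes with a 3′ UTR had one. The 3′ UTRs searched ran from 121 bases in *Marco* to 5637 in *Colec12*. *Cd36* had a shorter match, the 6 bases opposite seed bases 2 to 7 followed by an adenine, at position 191 of its 1660-base 3′ UTR (chr5:17783142-17783171, minus strand). It is printed because it is the closest match among the receptors, with the matching bases in capitals. The share of all genes with such a shorter match was not counted.
*Cd36* 3′ UTR site: aatatatatataTGCAATAagtcacagcat

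RefSeq promoter windows of 300 bases on GRCm38.p6, each reaching 50 bases past a start that RefSeq annotates, were available for 7 of the receptors and not for *Msr1*, *Colec12* or *Scarb1*. Of 15 motifs searched on both strands, the purine-rich core GAGGAA, known from sites of the myeloid factor PU.1, was found in the windows of *Marco*, *Stab1* and *Axl*, and in 28.28% of all 32851 windows, of which some genes have several. The GC box GGGCGG was found in those of *Cd36*, *Lrp1*, *Mertk* and *Axl*, and in 35.66% of all windows. GGAAGT was found in *Cd36* (23.77% of all windows), TTCCCAGAA in *Lrp1* (1.282%), CCAAT in *Cd36* and *Stab1* (37.41%), AGGTCA in *Cd36* and *Stab2* (16.26%) and CCTGCAGG in *Stab1* (1.455%). The other 8 were in none of the 7 windows: GAGGAAGT (3.202%), AGGAAGT (9.351%), TCATGTG (3.772%), CACGTG (7.15%), TGACTCA (5.202%), TTGCGCAA (0.1826%), GTGACGTCA (1.309%) and TATAAA (13.62%). GGAAGT lies within AGGAAGT, which lies within GAGGAAGT. The window of *Cd36* (chr5:17835847-17836146, minus) lies inside the gene as GENCODE M21 draws it (chr5:17781690-17888801) and not at its outermost start. These matches are letters in a window and not measured sites.

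The windows of *Marco*, *Stab1* and *Mertk* are shown because the first 2 of these genes had shallower fitted leukocyte slopes in KO than in NTC tumors and the last a steeper one, differences that did not pass the adjusted test and are given with their values below. Capitals mark GAGGAA in the first 2 and GGGCGG or its complement CCGCCC in the last. GAGGAA was also in the window of *Axl*, whose slope difference over 10 tumors was 0.03. GGGCGG was also in those of *Axl*, *Cd36* (slope difference -0.11) and *Lrp1* (0.09). A link between motif and slope was not tested. They lie at chr1:120504975-120505274 (minus), chr14:31168592-31168891 (minus) and chr2:128698665-128698964 (plus).
*Marco*: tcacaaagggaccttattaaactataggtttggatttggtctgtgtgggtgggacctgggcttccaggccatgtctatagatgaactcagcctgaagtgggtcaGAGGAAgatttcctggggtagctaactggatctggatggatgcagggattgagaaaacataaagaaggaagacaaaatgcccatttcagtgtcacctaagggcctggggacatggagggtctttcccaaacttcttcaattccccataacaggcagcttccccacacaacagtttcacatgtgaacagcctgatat
*Stab1*: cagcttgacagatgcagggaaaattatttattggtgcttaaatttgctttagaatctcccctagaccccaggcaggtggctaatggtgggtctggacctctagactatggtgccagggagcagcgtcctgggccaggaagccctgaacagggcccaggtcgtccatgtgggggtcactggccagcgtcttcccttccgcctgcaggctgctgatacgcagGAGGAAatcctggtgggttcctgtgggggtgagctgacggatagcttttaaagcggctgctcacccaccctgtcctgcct
*Mertk*: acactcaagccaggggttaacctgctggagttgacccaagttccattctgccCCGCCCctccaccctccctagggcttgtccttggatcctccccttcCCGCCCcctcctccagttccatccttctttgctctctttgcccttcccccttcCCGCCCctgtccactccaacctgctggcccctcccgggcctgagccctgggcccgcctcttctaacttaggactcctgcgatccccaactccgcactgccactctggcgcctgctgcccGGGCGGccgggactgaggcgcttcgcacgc

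The first comparison asked whether the receptors differed between *Mir25* KO and NTC tumors. Over all 10 tumors none passed the test, and without NTC replicate 1 the fitted differences of 8 receptors were larger but still did not pass in edgeR. The exceptions were *Scarb1*, whose fitted difference was near 0 with and without that library, and *Axl*, whose difference hardly moved. Values per tumor follow by receptor class, in CPM and in the order of replicates 1 to 5.

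*Cd36* encodes a class B receptor for oxidized LDL, long-chain fatty acids and thrombospondin. It stood at 418, 452, 97.9, 123 and 759 CPM in the KO tumors and at 695, 49.0, 69.1, 33.8 and 79.8 CPM in the NTC tumors. Without NTC replicate 1 every KO tumor was above every NTC tumor, and with it the groups overlapped. The mean was 369.9 ± 272 CPM in KO tumors (SD, n = 5), 185 ± 285 in NTC tumors (SD, n = 5) and 57.9 ± 20.5 in the 4 other NTC tumors (SD, n = 4). The log2 fold change was 1.00 (SE 0.90, edgeR adjusted p = 0.772) over 10 tumors and 2.63 (SE 0.59, edgeR adjusted p = 0.112) over 9.

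*Scarb1*, the other class B receptor, mediates selective uptake of cholesterol esters from HDL. It was measured at 39.0, 47.4, 49.9, 61.2 and 38.2 CPM in KO tumors and at 33.9, 46.5, 43.6, 50.6 and 46.0 CPM in NTC tumors. It varied 1.81-fold between the highest and the lowest tumor, against 22.4-fold for *Cd36*. The log2 fold change was 0.09 over 10 tumors, with a normal 95% interval from -0.20 to 0.38, and -0.02 over 9.

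Among the class A receptors, *Msr1*, the macrophage receptor for acetylated LDL and polyanions, stood at 152, 163, 53.7, 63.0 and 327 CPM in KO tumors and at 332, 41.9, 75.1, 28.4 and 67.4 CPM in NTC tumors. Its lowest KO tumors lay within the range of NTC replicates 2 to 5. *Marco*, a receptor of subsets of macrophages that binds bacteria and particles, was at 13.5, 34.9, 13.3, 7.78 and 26.0 CPM in KO tumors against 69.8, 2.76, 15.5, 1.34 and 10.6 CPM in NTC tumors. *Colec12*, which binds glycans and modified LDL, was at 17.8, 15.1, 7.23, 6.05 and 29.3 CPM against 50.2, 0.853, 10.0, 1.79 and 5.51 CPM. The highest value of each of these 3 genes over all 10 tumors belonged to NTC replicate 1, and the lowest to NTC replicate 2 or 4. Their log2 fold changes were 0.49, -0.04 and 0.18 over 10 tumors and 1.47, 1.29 and 1.69 over 9, in the order *Msr1*, *Marco*, *Colec12*.

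*Stab1* and *Stab2* encode large class H receptors, of which stabilin-1 is made by macrophages and sinusoidal endothelium and stabilin-2 clears hyaluronan. *Stab1* was at 120.4, 133, 83.2, 56.8 and 198 CPM in KO tumors and at 229, 21.7, 63.2, 16.6 and 59.5 CPM in NTC tumors. *Stab2* was near the limit of detection, with 16, 138, 13, 14 and 48 counts in KO tumors and 23, 4, 0, 2 and 12 counts in NTC tumors. The 0 in NTC replicate 3 allows up to 3 counts, or 0.0945 CPM, counting error alone considered. As for *Cd36*, every KO tumor had more *Stab2* CPM than NTC replicates 2 to 5, but KO replicate 2 carried most of the group's counts. The log2 fold change was 0.61 for *Stab1* and 1.58 for *Stab2* over 10 tumors (SE 0.66 and 1.24), and 1.52 and 3.43 over 9 (SE 0.47 and 1.04). Annotated genes on the opposite strand overlap 1.09% of the exonic bases of *Stab1* (*Nt5dc2*) and 1.61% of those of *Stab2* (*Gm16268*), and the strand setting of the counting is not given in the sources used here.

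*Lrp1*, whose product also removes proteases and their inhibitors, was at 678, 999, 344, 295 and 1294 CPM in KO tumors and at 1028, 163, 268, 207 and 430.4 CPM in NTC tumors. Its groups overlapped through NTC replicates 1 and 5. Its log2 fold change was 0.78 (SE 0.57, edgeR adjusted p = 0.723) over 10 tumors and 1.39 (SE 0.46, edgeR adjusted p = 0.180) over 9.

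*Mertk*, the TAM receptor most tied to macrophage efferocytosis, was at 65.3, 156, 28.9, 16.5 and 145 CPM in KO tumors and at 71.6, 10.3, 16.5, 11.4 and 31.2 CPM in NTC tumors. Its log2 fold change was 1.56 (SE 0.72, edgeR adjusted p = 0.573) over 10 tumors and 2.20 (SE 0.66, edgeR adjusted p = 0.167) over 9. *Axl*, its relative, was at 354, 414, 297, 151 and 370.1 CPM in KO tumors and at 284, 171, 269.7, 129 and 334 CPM in NTC tumors. The ranges of *Axl* overlapped widely, and its log2 fold change was 0.42 (SE 0.31) over 10 tumors and 0.45 (SE 0.32) over 9.

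**Figure D1:**
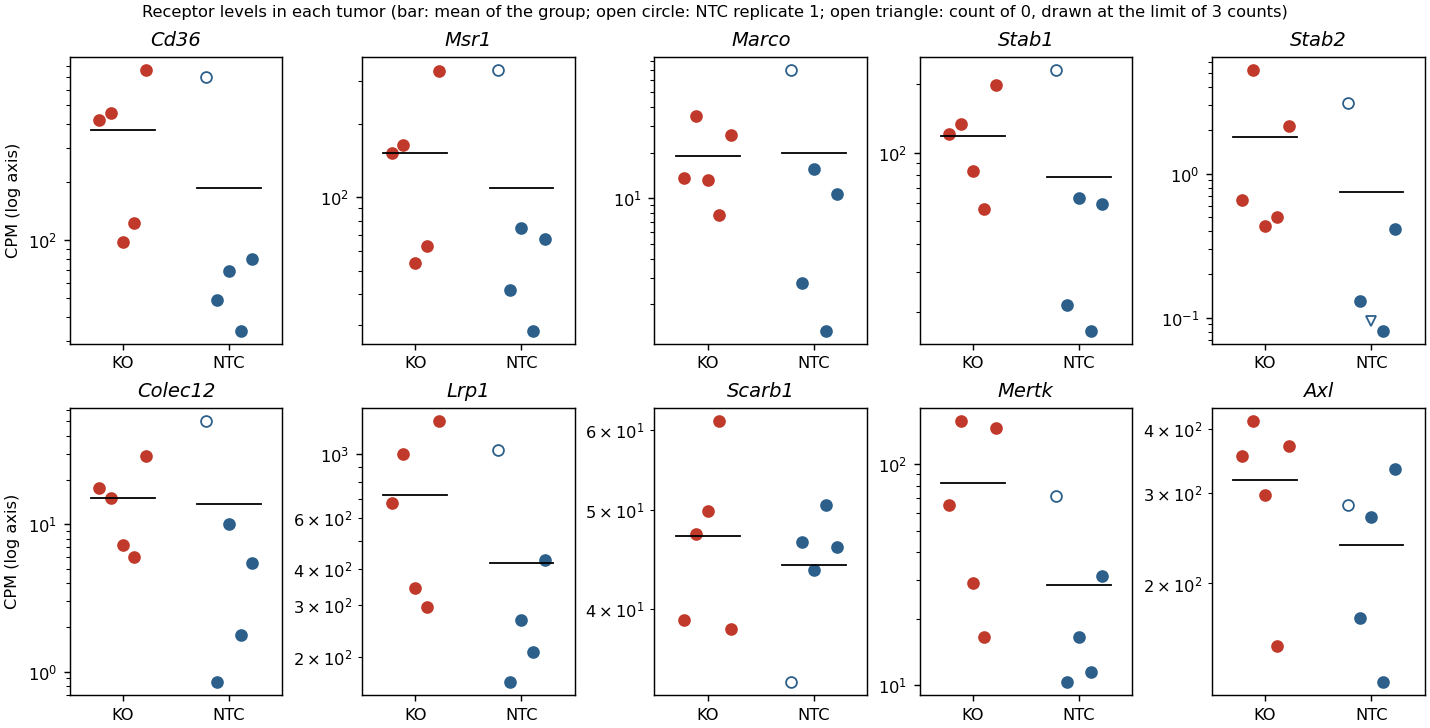
Each panel plots 1 receptor, with CPM on a log axis against the group. Filled circles are tumors (red KO, blue NTC), open circles NTC replicate 1, the open triangle a count of 0 drawn at 3 counts, and bars the mean of all 5 tumors. NTC replicate 1 lies with the highest KO tumors for most receptors and is the lowest tumor for *Scarb1*.

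Counted against all genes, 0 of the 10 receptors were called over 10 tumors (absolute log2 fold change above 1 and adjusted p under 0.05, edgeR), where 0.0190% of 15821 genes were called. None had an unadjusted p under 0.05, beside 8.85% of genes, and DESeq2 on the same tumors and genes also called 0. Over 9 tumors edgeR called 0 of the 10, against 0.106% of 16078 genes, while 7 of the 10 had an unadjusted p under 0.05, beside 20.1% of genes, all 7 higher in KO: *Cd36*, *Msr1*, *Stab1*, *Stab2*, *Colec12*, *Lrp1* and *Mertk*. DESeq2 over the 9 tumors without a filter on low counts called 6 receptors, all higher in KO, against 4.05% of 18601 genes. These were *Cd36* (log2 fold change 2.67, DESeq2 adjusted p = 0.000124), *Mertk* (2.25, adjusted p = 0.00825), *Stab2* (3.52, adjusted p = 0.0102), *Stab1* (1.55, adjusted p = 0.0188), *Lrp1* (1.43, adjusted p = 0.0308) and *Msr1* (1.51, adjusted p = 0.041). Neither leaving out NTC replicate 1 in edgeR nor DESeq2 over all 10 tumors gave a call by itself. Single tumors other than NTC replicate 1 also moved the fitted differences over 10 tumors. Without KO replicate 5 these were 0.57 for *Cd36*, 0.0039 for *Msr1*, 0.35 for *Stab1* and 0.47 for *Lrp1*, and without KO replicate 2 the difference was 0.61 for *Stab2*. Without NTC replicate 2 or 4 they were 0.28 and 0.24 for *Msr1* and 0.37 and 0.35 for *Stab1*. For *Axl*, leaving out single tumors gave 0.26 to 0.59. The values of no receptor were all higher in KO than in NTC tumors over 10 tumors (0.872% of genes), and those of *Cd36* and *Stab2* were over 9 (2.74% of genes). The median log2 fold change of the 10 receptors was 0.55 over 10 tumors and 1.495 over 9, beside 0.01 and -0.02 for all genes tested.

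**Figure D2:**
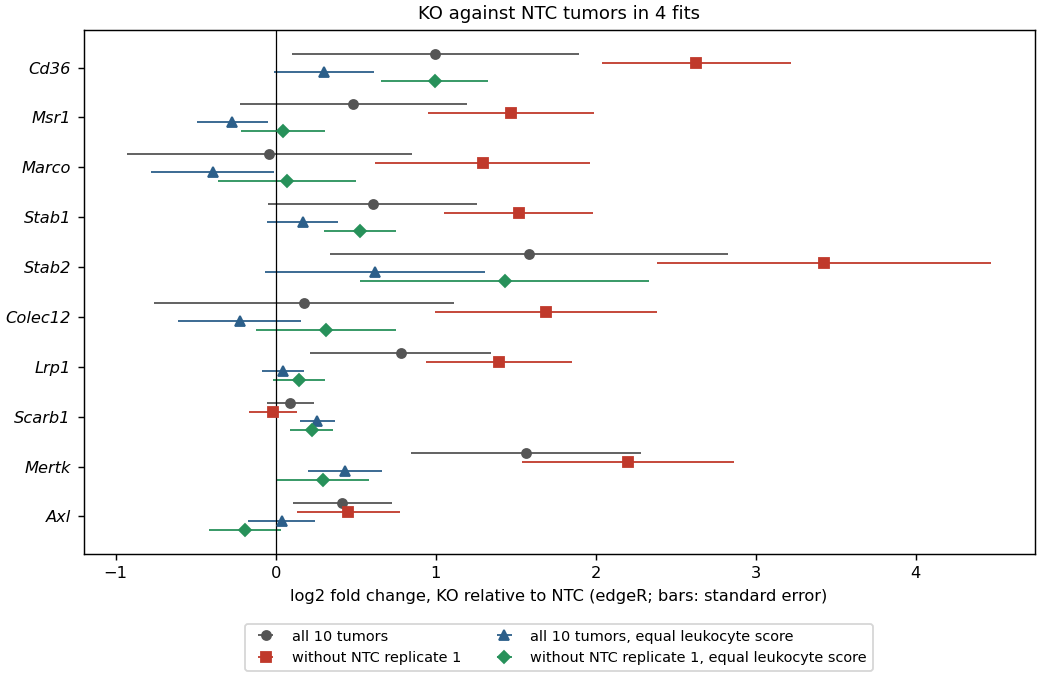
The log2 fold change of KO relative to NTC (horizontal axis, bars show the standard error) is drawn for each receptor in 4 fits: all 10 tumors, without NTC replicate 1, and both again at equal leukocyte score. Squares (without NTC replicate 1) lie right of the other points for *Cd36*, *Msr1*, *Marco*, *Stab1*, *Stab2*, *Colec12*, *Lrp1* and *Mertk*, and the points at equal leukocyte score lie nearer 0 than the squares for these genes.

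Leukocyte content differed widely between the tumors and was higher on average in the KO group, a difference that did not pass the test. The leukocyte score, the mean log2 CPM of 10 pan-leukocyte genes that include *Ptprc* and none of the receptors, was 6.26, 6.98, 5.33, 5.15 and 7.31 in KO tumors and 6.94, 4.18, 5.36, 4.20 and 5.79 in NTC tumors. KO tumors were 0.91 higher on average (exact permutation test, two-sided, p = 0.214) and 1.33 higher without NTC replicate 1 (exact permutation test, two-sided, p = 0.0873), and the groups overlapped in both cases. The macrophage score was 1.20 higher in KO tumors and 1.70 higher without NTC replicate 1 (exact permutation test, two-sided, p = 0.191 and 0.0794). The fibroblast score differed more, by 1.59 and 2.33 (exact permutation test, two-sided, p = 0.238 and 0.0556), with groups that overlapped as well. The score of 10 macrophage markers ran closely with the leukocyte score (Pearson r = 0.99 over the 10 tumors, on shared libraries). Those of fibroblast, endothelial and melanoma cell markers had r = 0.92, 0.90 and -0.82 with the leukocyte score. In such bulk samples, fewer cells of a type and less RNA per cell cannot be told apart. The summed CPM of the 10 macrophage markers, all detected in every tumor, ran from 859 to 4016 in KO tumors, from 253 to 1326 in NTC replicates 2 to 5 and was 3098 in NTC replicate 1.

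Markers of other tissues were also higher on average in KO tumors. The 8 skeletal muscle markers summed to 2.00 to 199.5 CPM in KO tumors, 1.14 to 1.80 CPM in NTC replicates 2 to 5 and 6.02 CPM in NTC replicate 1, with *Mb* at 0 in 5 tumors, *Myh4* in 4, *Myh1* in 3, *Tnnt3* and *Tnni2* in 2 and *Ckm* in 1. The 6 adipocyte markers summed to 5.42 to 86.5 CPM in KO tumors, 0.488 to 27.7 CPM in NTC replicates 2 to 5 and 74.2 CPM in NTC replicate 1, with *Cidec* at 0 in 2 tumors and *Adipoq*, *Plin1* and *Lep* in 1 each. The 6 keratinocyte markers summed to 0.0888 to 20.2 CPM in KO tumors, 0 to 0.189 CPM in NTC replicates 2 to 5 and 1.47 CPM in NTC replicate 1. Over 10 tumors the scores of skeletal muscle, adipocyte and keratinocyte markers were 2.52, 1.34 and 1.56 higher in KO (exact permutation test, two-sided, p = 0.0794, 0.365 and 0.1825). Over 9 tumors they were 2.95, 2.05 and 1.80 higher (exact permutation test, two-sided, p = 0.0476, 0.175 and 0.167), in tests added after seeing the data. The score of 6 neutrophil markers was 0.89 higher in KO over 10 tumors and 1.73 higher over 9 (exact permutation test, two-sided, p = 0.397 and 0.0238), and over 9 tumors each KO tumor lay above each NTC tumor. These neutrophil markers summed to 9.58 to 57.9 CPM in KO tumors, 3.12 to 13.97 CPM in NTC replicates 2 to 5 and 101 CPM in NTC replicate 1, with *Ly6g* at 0 in 7 tumors and *Cxcr2* in 3. After Benjamini-Hochberg adjustment over the 9 scores compared, the exact permutation p ran from 0.429 to 0.627 over 10 tumors and from 0.157 to 0.175 over 9. Their part in the differences of the receptors, *Cd36* among them, was not tested.

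The next comparison set the receptors against leukocyte content within the groups, in a fit with the group and the score as terms. All 10 receptors followed the score: 9 were higher in leukocyte-rich tumors and *Scarb1* was lower. The count of 9 stands beside 23.0% of 15821 genes called higher, and the count of 1 beside 15.6% called lower (edgeR, adjusted p under 0.05). Without NTC replicate 1 it was again 9 higher, beside 15.8% of 16078 genes, and 1 lower, *Scarb1*, beside 12.0%. The slopes below are log2 changes in level per unit of the score, that is, per doubling of the leukocyte genes.

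*Lrp1* was the receptor most tightly tied to the score, with a slope of 0.91 (SE 0.06, edgeR adjusted p = 3.61e-07) over 10 tumors and 0.86 (SE 0.08, edgeR adjusted p = 1.59e-05) over 9. *Mertk* rose by 1.17 per unit (SE 0.10, edgeR adjusted p = 4.73e-06) and *Msr1* by 1.10 (SE 0.10, edgeR adjusted p = 6.68e-06). *Cd36* rose by 1.35 (SE 0.14) and *Stab1* by 1.03 (SE 0.11). The slopes of the 10 macrophage markers ran from 1.09 to 1.36 with a median of 1.18, so *Mertk*, *Msr1* and *Cd36* lay among them and *Stab1* and *Lrp1* below. Over 9 tumors the markers ran from 1.07 to 1.36, with *Mertk* (1.24) among them and *Cd36* (1.03), *Msr1* (0.95), *Lrp1* and *Stab1* (0.83) below.

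*Marco* (1.36, SE 0.20), *Colec12* (1.46, SE 0.20) and *Stab2* (1.70, SE 0.34) had slopes at or above that range over 10 tumors, with larger errors. Over 9 tumors *Marco* (1.10) and *Colec12* (1.16) lay within the range of the markers and *Stab2* (1.40, SE 0.43) above it. *Axl* had a shallower slope of 0.43 (SE 0.10, edgeR adjusted p = 0.00656). Against the 3.21-fold range of *Axl* over the tumors, *Mertk* ranged 15.1-fold and *Colec12* 58.9-fold. *Scarb1* fell by 0.19 per unit (SE 0.05, edgeR adjusted p = 0.0154), and by 0.20 over 9 tumors (SE 0.07, edgeR adjusted p = 0.0478). That call was lost without KO replicate 4 (-0.15, adjusted p = 0.0579) or KO replicate 5 (-0.17, adjusted p = 0.0542). CPM are shares of a library, so a lower share and a lower amount of *Scarb1* RNA cannot be told apart.

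**Figure D3:**
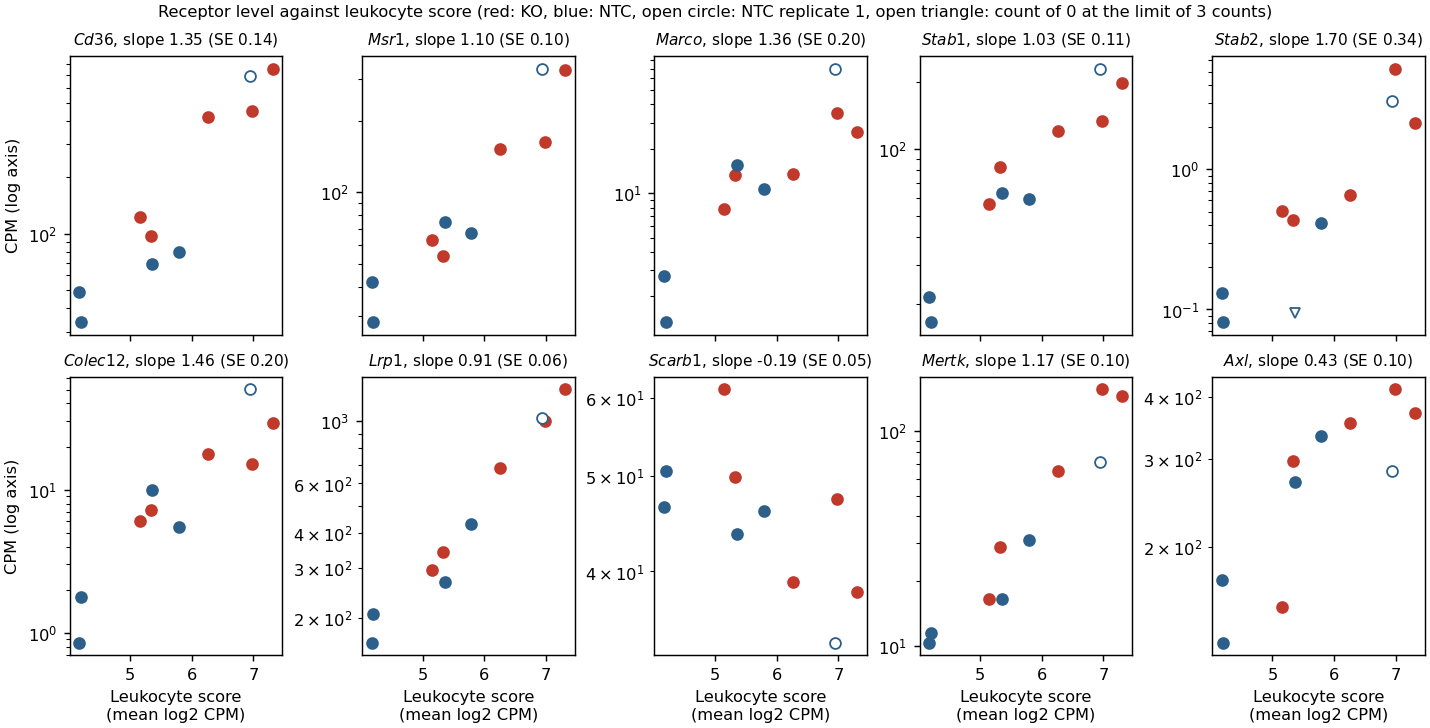
Each panel plots CPM of 1 receptor (log axis) against the leukocyte score, the mean log2 CPM of 10 leukocyte genes, with 1 point per tumor (red KO, blue NTC, open circle NTC replicate 1, open triangle a count of 0 drawn at 3 counts). KO and NTC tumors lie along a common rise for *Lrp1*, *Scarb1* falls, and NTC replicate 1 lies above KO replicate 2, its neighbour in score, for *Cd36*, *Msr1*, *Marco*, *Stab1* and *Colec12* and below it for *Mertk* and *Axl*.

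At equal leukocyte score no receptor passed the test between KO and NTC tumors, in edgeR over 10 or 9 tumors or in DESeq2 over 10. Over 10 tumors edgeR called 0 of 10, beside 0.0822% of genes, and 1 receptor, *Scarb1*, had an unadjusted p under 0.05, beside 13.4% of genes (log2 fold change 0.26, SE 0.11, edgeR adjusted p = 0.334). Over 9 tumors edgeR called 0 of 10, beside 0.0684% of genes, and *Cd36* and *Stab1* had an unadjusted p under 0.05, beside 9.27% of genes. *Cd36* was 0.99 higher in KO (SE 0.33, edgeR adjusted p = 0.336), against 0.30 (SE 0.31) over 10 tumors, where leaving out other single tumors gave 0.0957 (without NTC replicate 5) to 0.41 (without KO replicate 3). *Stab2* was 1.43 higher (SE 0.90) against 0.62 (SE 0.69) over 10 tumors. *Stab1* was 0.53 higher (SE 0.22, edgeR adjusted p = 0.497) against 0.17 (SE 0.22). *Lrp1*, whose fitted difference over 9 tumors had been 1.39, was at 0.14 (SE 0.16), against 0.04 (SE 0.13) over 10 tumors. *Mertk*, at 2.20 before, was at 0.29 (SE 0.29), against 0.43 (SE 0.23) over 10 tumors. The normal 95% interval at equal score over 9 tumors was -0.17 to 0.46 for *Lrp1* and -0.28 to 0.86 for *Mertk*. The median over the 10 receptors was 0.11 over 10 tumors and 0.26 over 9, beside 0.01 and 0.02 for all genes tested.

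A pair of tumors of each genotype with nearly the same score, chosen after their values were seen, can be set side by side, with receptors higher in either tumor. NTC replicate 1 (score 6.94) and KO replicate 2 (score 6.98) had 1028 and 999 CPM of *Lrp1*. The NTC tumor was higher in *Cd36* (695 against 452 CPM), *Msr1* (332 against 163), *Marco* (69.8 against 34.9), *Stab1* (229 against 133) and *Colec12* (50.2 against 15.1). The KO tumor was higher in *Mertk* (156 against 71.6 CPM), *Axl* (414 against 284), *Scarb1* (47.4 against 33.9) and *Stab2* (5.23 against 3.08). At the lower score of 5.36 and 5.33, NTC replicate 3 and KO replicate 3 had 69.1 and 97.9 CPM of *Cd36*, 75.1 and 53.7 of *Msr1*, 63.2 and 83.2 of *Stab1* and 16.5 and 28.9 of *Mertk*. They had 268 and 344 CPM of *Lrp1*, 15.5 and 13.3 of *Marco*, 10.0 and 7.23 of *Colec12*, 269.7 and 297.2 of *Axl*, 43.6 and 49.9 of *Scarb1* and 0 and 0.437 of *Stab2*. *Msr1*, *Marco* and *Colec12* were higher in the NTC tumor of both pairs, *Mertk*, *Axl*, *Scarb1* and *Stab2* in the KO tumor of both, and *Cd36*, *Stab1* and *Lrp1* differed in direction between the pairs. Single pairs have no replicate check.

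Whether the slopes themselves differed between the groups was tested with an interaction term, a test chosen after seeing the data. Over 10 tumors 0 of the 10 receptors were called in edgeR, as were 0 of 15821 genes, and 4 receptors had an unadjusted p under 0.05, beside 6.88% of genes. *Marco* had a slope of 1.78 in NTC tumors and 0.80 in KO tumors (difference -0.98, SE 0.30, edgeR adjusted p = 0.494). *Stab1* had 1.27 and 0.68 (difference -0.59, SE 0.15, edgeR adjusted p = 0.411) and *Colec12* 1.84 and 0.93 (difference -0.91, SE 0.32, edgeR adjusted p = 0.587). *Mertk* went the other way, with 0.98 in NTC and 1.45 in KO tumors (difference 0.47, SE 0.17, edgeR adjusted p = 0.587). Over 9 tumors the differences were -1.03 for *Marco*, -0.50 for *Stab1*, -0.81 for *Colec12* and 0.62 for *Mertk*, and none passed the adjustment. There 4 receptors, *Cd36*, *Marco*, *Stab1* and *Mertk*, had an unadjusted p under 0.05, beside 7.79% of genes. *Cd36* had a difference of -0.11 over 10 tumors and 0.69 over 9, so its sign rested on NTC replicate 1.

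Because the receptors are known from several cell types, the same fit was made with a score of macrophages, fibroblasts, endothelial cells or melanoma cells in place of leukocytes. On the macrophage score 9 receptors rose, beside 21.9% of genes, and again 9 over 9 tumors, beside 14.4%. *Scarb1* was called lower on it over 10 tumors (-0.15, edgeR adjusted p = 0.0273), beside 13.4% of genes, and not over 9 (-0.15, edgeR adjusted p = 0.0908), beside 8.35%. On the fibroblast score 9 rose over 10 tumors, beside 18.3% of genes, and on the endothelial score 9, beside 17.4%. Without NTC replicate 1 both counts fell to 3, beside 5.37% of genes for the fibroblast and 4.77% for the endothelial score, and the 3 were *Marco*, *Stab1* and *Colec12* on both. On the melanoma cell score 8 receptors fell over 10 tumors, beside 19.4% of genes, and 3 over 9 tumors, beside 4.20%: *Cd36*, *Msr1* and *Lrp1*.

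*Colec12* had the smallest relative error on the fibroblast score, with a slope of 0.98 (SE 0.06, edgeR adjusted p = 1.79e-06) over 10 tumors and 0.87 (SE 0.06, edgeR adjusted p = 0.000129) over 9. *Marco* was steepest for its error on the endothelial score, at 2.07 (SE 0.20, edgeR adjusted p = 0.000199) and 1.81 without NTC replicate 1 (SE 0.26, edgeR adjusted p = 0.00951). *Cd36* fell by 4.05 per unit of the melanoma cell score (SE 0.36, edgeR adjusted p = 0.000232). *Scarb1* rose by 0.58 on the melanoma cell score (SE 0.16, edgeR adjusted p = 0.022), a call lost without NTC replicate 1 (0.71, SE 0.25, edgeR adjusted p = 0.0957), and *Axl* was at -0.56 (SE 0.46, edgeR adjusted p = 0.365). The scores are correlated with each other and have different spreads, so slopes on different scores are not on 1 scale, and their differences were not tested.

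**Figure D4:**
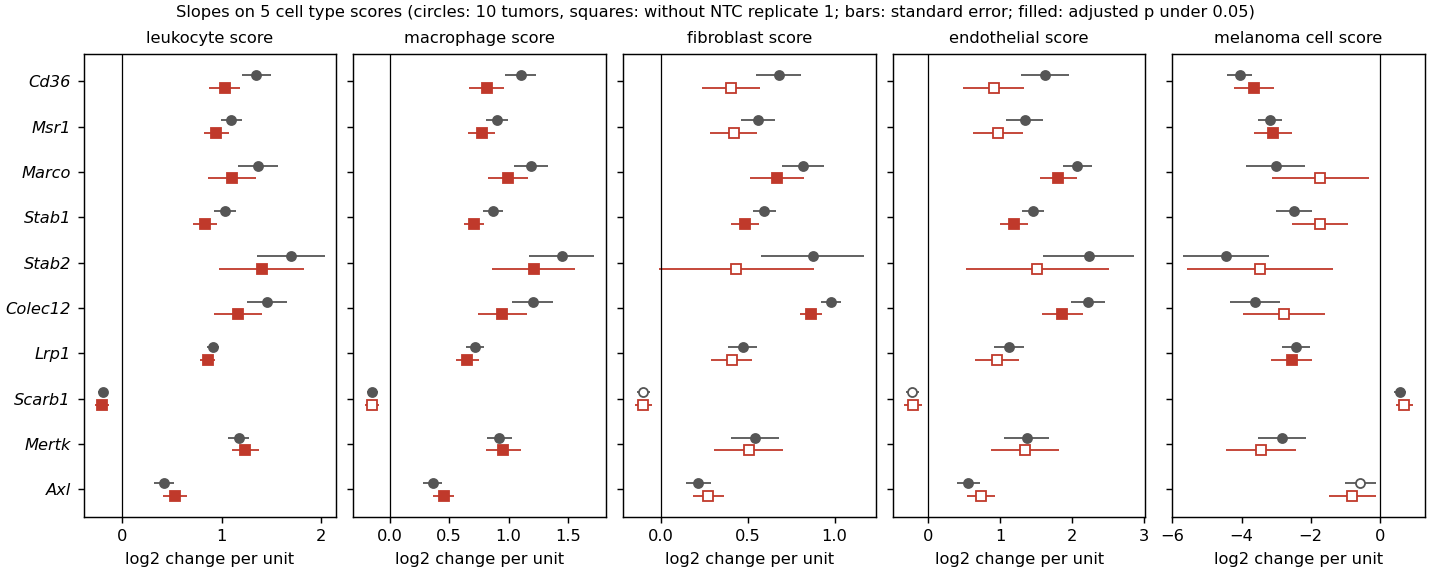
Slopes of the receptors (log2 change per unit of the score, bars show the standard error) are drawn on 5 cell type scores, as circles over 10 tumors and squares without NTC replicate 1, and filled symbols passed the test at an adjusted p under 0.05. On the leukocyte score all symbols are filled, and on the fibroblast and endothelial scores the squares stay filled for *Marco*, *Stab1* and *Colec12*.

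Levels of different genes were compared per length, as CPM per kb of exon. In KO tumors the order of the mean levels was *Cd36* (103 CPM per kb), *Axl* (63.1), *Lrp1* (40.8), *Msr1* (24.0), *Mertk* (19.03), *Stab1* (11.5), *Marco* (9.91), *Scarb1* (5.55), *Colec12* (1.73) and *Stab2* (0.205). In NTC replicates 2 to 5 *Axl* came first (44.9 CPM per kb), before *Cd36* (16.1), *Lrp1* (15.1), *Msr1* (8.38), *Scarb1* (5.50), *Mertk* (4.01), *Marco* (3.93), *Stab1* (3.91), *Colec12* (0.521) and *Stab2* (0.0179). The SD of *Cd36* was 75.7 in KO tumors, larger than its distance from *Axl*, and neighbours from *Lrp1* to *Marco* in that group also lay within an SD of each other. In these 4 NTC tumors the SDs of *Cd36* and *Lrp1* overlapped, as did those of *Scarb1*, *Mertk*, *Marco* and *Stab1*. *Msr1* (8.38, SD 3.43) overlapped within the SDs with each of these genes. *Scarb1* stood at rank 8 in KO tumors and at rank 5 in these 4. With NTC replicate 1 included the NTC order began as in KO tumors, with *Cd36* (51.6 CPM per kb) before *Axl* (47.2) and *Lrp1* (23.7), and *Scarb1* (5.19) stood at rank 8 in both groups.

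Within the TAM family *Axl* made up most of the level per length in each tumor, from 68.0% to 90.2% of the sum of the 3 genes. The share of *Mertk* was 17.4%, 30.2%, 9.90%, 10.5% and 31.0% in KO tumors and 22.4%, 5.98%, 6.43%, 8.57% and 9.54% in NTC tumors. It was highest in the 4 tumors with leukocyte scores above 6, which were KO replicates 1, 2 and 5 and NTC replicate 1. *Tyro3*, the remaining member, went the other way: it made up 1.01% to 8.45% and fell by 0.51 per unit of the leukocyte score (SE 0.09, edgeR adjusted p = 0.000766).

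The other genes of these pathways were read from the same fits as lists. Of their 55 genes tested, 0 were called between KO and NTC tumors by edgeR over 10 or 9 tumors, with 4 and 28 at an unadjusted p under 0.05, beside 8.85% and 20.1% of all genes. Against the leukocyte score, on which 23.0% of all genes were called higher and 15.6% lower over 10 tumors, 7 of 7 bridging ligands were called higher, with a median slope of 1.09 beside -0.01 for all genes tested. *Gas6*, the ligand of all 3 TAM receptors, rose by 1.31 (SE 0.25, edgeR adjusted p = 0.00174) and *Pros1*, encoding protein S, by 0.41. *C1qa*, *C1qb* and *C1qc*, which encode the complement protein that coats dying cells and are also in the macrophage list, rose by 1.09, 1.19 and 1.09. *Thbs1*, a ligand of CD36, rose by 0.84 and by 0.54 over 9 tumors, and *Mfge8*, the bridge to integrins, by 0.13, a call lost over 9 tumors.

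Of 12 other scavenger receptors 8 were higher and 0 lower with the leukocyte score, beside the same 23.0% and 15.6% of all genes, with a median of 0.98 over 10 tumors and 0.65 over 9. *Cd5l*, encoding a secreted scavenger protein of macrophages, had the steepest slope at 2.64 (SE 0.24, edgeR adjusted p = 5.59e-06). *Cxcl16*, the receptor for phosphatidylserine and oxidized lipoprotein that is also a chemokine, rose by 1.08, *Cd68* by 1.25 and *Mrc1*, the mannose receptor, by 1.07. *Scara3* rose by 1.85 and *Scara5* by 1.68, and *Scarb2* and *Scarf1* by 0.43 and 0.44. *Cd163* (0.90, SE 0.43), *Olr1* (0.61, SE 0.32), *Megf10* (0.03) and *Scarf2* (-0.28) did not pass, and over 9 tumors they were at 0.21, 0.36, 0.16 and -0.13.

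Of the genes related to *Lrp1*, *Lrp8*, which binds reelin, fell by 0.52 (SE 0.06, edgeR adjusted p = 2.4e-05). *Lrpap1*, the chaperone of LRP1, rose by 0.30, *Lrp12* by 0.27 and *Lrp10* by 0.14. Over 9 tumors *Lrp12* was not called, and *Lrp2*, *Lrp5* and *Lrp6* were also called lower, at -0.66, -0.24 and -0.20. Each of the genes named here had a lower slope than *Lrp1* over 10 tumors, which stood at 0.91 (SE 0.06).

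Among 9 other apoptotic cell receptors, 6 passed the filter, and *Itgb5* (1.11), *Cd300lb* (1.18) and *Cd300lf* (1.30) rose while *Tyro3* fell. *Itgav* and *Itgb3* were at -0.01 and 0.02. Of the 8 genes of the engulfment machinery downstream of these receptors, *Elmo1* rose by 1.04, *Vav1* by 1.11 and *Elmo2* by 0.15, *Dock1* fell by 0.21, and *Crk*, *Crkl*, *Rac1* and *Gulp1* did not pass. Over 9 tumors *Elmo2* was not called (0.12, edgeR adjusted p = 0.119) and *Gulp1* was called lower (-0.20, edgeR adjusted p = 0.0167). Of 9 lipid handling genes 8 rose, beside 23.0% of all genes. *Abca1* and *Abcg1*, the exporters of cholesterol taken up with cargo, rose by 1.37 and 1.45, *Lpl* by 1.12, *Nr1h3* by 1.09, *Pparg* by 1.08, *Apoe* by 0.83, *Plin2* by 0.73 and *Soat1* by 0.20, the last not called over 9 tumors, and *Nr1h2* was at 0.09. All 3 genes of the do-not-eat-me signals rose, beside the same share, *Cd47* by 0.51, its receptor *Sirpa* by 0.61 and *Cd24a* by 0.85, of which *Cd24a* was not called over 9 tumors.

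**Figure D5:**
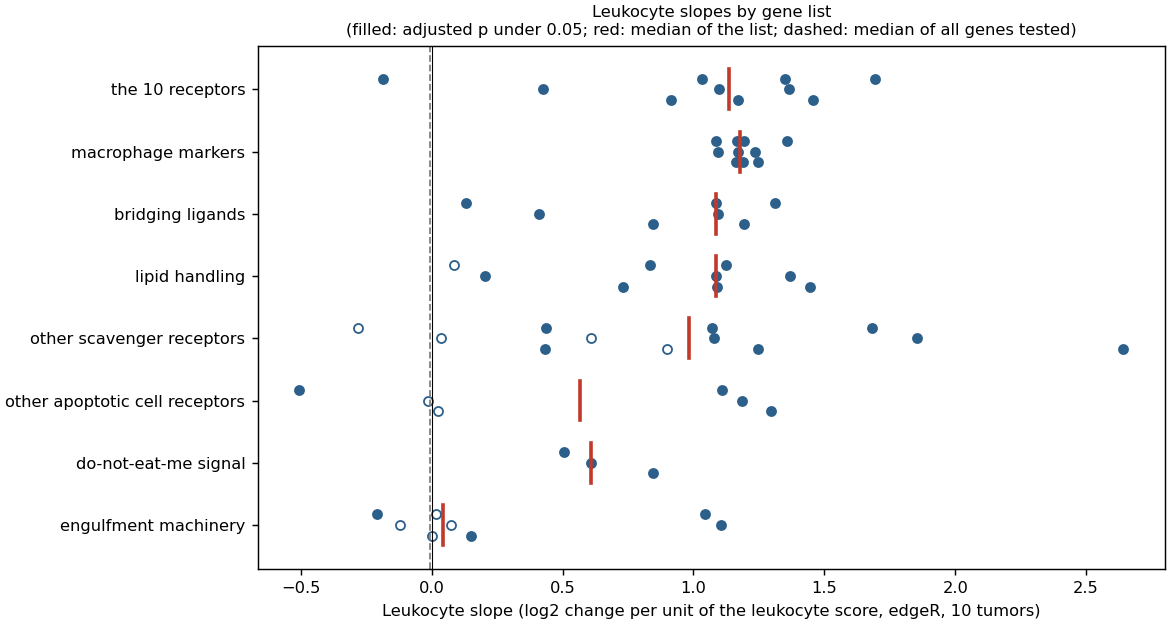
Leukocyte slopes over 10 tumors (horizontal axis, log2 change per unit of the score) are drawn for each gene of 8 lists, with filled points for an adjusted p under 0.05, red bars for the list's median and a dashed line for the median of all genes tested. The receptors, the macrophage markers, the bridging ligands and the lipid handling genes have medians of 1.13, 1.18, 1.09 and 1.08, and the engulfment machinery of 0.04.

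The genes whose log2 CPM ran most like each receptor over the 10 tumors were taken from 11167 genes with a mean log2 CPM of at least 2, as a description on shared libraries. For *Lrp1* they were *Pla2g7* (Pearson r = 0.994), *Susd6* and *Arap1*. For *Mertk* they were *Tnfrsf14* (r = 0.993), *Tspan14* and *Psap*, and for *Msr1* *Metrnl* (r = 0.994), *Clec4d* and *Apobr*. For *Cd36* they were *Sgk1* (r = 0.990), *Dleu2* and *Fam20c*, and for *Stab1* *Dapk1* (r = 0.992), *Il4ra* and *Thbs3*.

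*Colec12* ran most like *Bicc1* (r = 0.995), *Il1r1* and *Col5a2*, a fibrillar collagen gene. *Marco* ran most like *Siglec1* (r = 0.982), which encodes the sialoadhesin of macrophages, *H2bc7* and *Kctd12b*. For *Axl* they were *Nod1* (r = 0.978), *H2-K1* and *Plaat3*, and for *Stab2*, at its low counts, *Cerk* (r = 0.968), *Tbc1d13* and *2310022A10Rik*. *Scarb1* stood apart from the other 9 receptors, with r from -0.75 with *Msr1* to -0.38 with *Stab2*, and ran most like *Tnpo3* (r = 0.955), *Xrcc3* and *Ipo11*. The other 9 receptors had r from 0.59 (*Stab2* with *Axl*) to 0.98 (*Lrp1* with *Mertk*) among themselves over the 10 tumors.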

How the data were processed

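Total RNA of 10 tumors was sequenced, 1 library per tumor. Per the labels, the authors used FastQC, Trimmomatic, HISAT2 and HTSeq with mm10, and deposited whole-number read counts per gene without normalization. Summary rows were left out of library sizes. Depth was 11896643 to 28682130 reads on genes. The limit for a count of 0 covers counting error only, and the reads carry no molecular identifiers. The intervals were taken from the SE of the fits, which includes the spread between tumors. Groups and replicate numbers came from the labels. Nothing in the labels names the mouse of each tumor, so p-values measure the spread between these samples.

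Counts were tested across all genes with edgeR 4.0.16 (quasi-likelihood, TMM, filterByExpr, Benjamini-Hochberg adjustment), with SE taken as the absolute log2 change over the square root of F. DESeq2 1.42.0 was an alternative. Scores are mean log2 CPM with a prior count of 2. R was 4.3.3 and Python 3.11.15, with matplotlib 3.10.9. Sequences came from RefSeq tables (GRCm38.p6) and lengths and 3′ UTRs from GENCODE M21. The receptors and lists were chosen with earlier results of these data known. Named genes are the receptors, the list genes called in a fit, the 2 of each list with the lowest p on the leukocyte score, the 3 nearest genes of each receptor and *Mcm7*. One list gene is not reported here. Alternatives covered normalization, filters, covariates, a replicate block and each tumor left out. The fits were tested on simulated data.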

Additional observations from a re-analysis of the deposited data

Results flagged for a closer look

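Of 40 checks of a single tumor standing far from the other 4 of its group, 11 were met, all by NTC replicate 1. Chance meets about 1 in 20 of separate checks on normally distributed values. These checks shared the same tumors, and those of the receptors used CPM on a linear scale, so the count cannot be set against that rate. In CPM it was at 695 for *Cd36* (33.8 to 79.8 in the other 4 NTC tumors), 332 for *Msr1* (28.4 to 75.1), 69.8 for *Marco* (1.34 to 15.5), 229 for *Stab1* (16.6 to 63.2), 3.08 for *Stab2* (0 to 0.416) and 50.2 for *Colec12* (0.853 to 10.0). Its scores, in mean log2 CPM, were 2.80 for neutrophil markers (-1.074 at most in the others), -0.48 for skeletal muscle markers (-2.79 to -2.32), -2.29 for keratinocyte markers (-3.67 to -3.32) and 9.50 for melanoma cell markers (10.34 to 10.43). Its reads on genes were 11896643, against 24145795 to 28682130.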

How the results depend on the processing

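Beside the 7 counts and 30 receptor values reported over 10 tumors, 86 recomputed counts were within 1.5 times and 463 recomputed values kept direction and side of the threshold, while 4 counts moved, 22 values changed sign, 6 gained and 6 lost a call. DESeq2 without a filter and without NTC replicate 1 called 6 receptors between KO and NTC, where 0 were called otherwise. Leaving out single tumors gave 3 to 10 receptors called on the fibroblast score, 3 to 9 on the endothelial score and 3 to 9 on the melanoma cell score, with the 3 each without NTC replicate 1. It gave log2 fold changes from -0.38 to 1.29 for *Marco*, from -0.20 to 1.69 for *Colec12* and from -0.0216 to 0.157 for *Scarb1*. At equal leukocyte score it gave -0.19 to 0.24 for *Axl*, -0.0361 to 0.526 for *Stab1*, -0.438 to 0.0460 for *Msr1*, -0.748 to 0.0712 for *Marco*, -0.41 to 0.32 for *Colec12* and -0.0427 to 0.144 for *Lrp1*. The same ranges were 0.258 to 1.43 for *Stab2*, 0.293 to 0.678 for *Mertk* and 0.161 to 0.320 for *Scarb1*, which kept their sign. *Marco*, reported at -0.04, was also at 0.12 without a filter and at 1.33 by DESeq2 over 9 tumors, and *Axl* at -0.00070 with the macrophage score as covariate. The cause was not tested in any of these. The highest of these values for *Marco*, *Colec12* and *Msr1* and the lowest for *Axl* came without NTC replicate 1.

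Replicate numbers do not pair the tumors: same-numbered KO and NTC tumors had correlations of deviations from -0.29 to 0.63, and numbers 1 and 4 alone matched best with themselves. With the replicate block *Marco* was at 1.01 between groups, and the leukocyte slopes of *Stab2* (1.77, edgeR adjusted p = 0.0578), *Scarb1* (-0.08, adjusted p = 0.497) and *Axl* (0.25, adjusted p = 0.115) were not called. Without the group as a term *Scarb1* had a slope of -0.13 (edgeR adjusted p = 0.0848). Depth limits *Stab2*, which had 0 to 138 counts per tumor.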
